A study of Mus musculus with 12 samples.

Results

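The cytosolic ribosomal protein genes were followed across 12 one-colour Agilent mouse arrays. They were taken by gene symbol alone: Rpl or Rps with a number and at most one of the endings a, l, x, al or l1, together with Rplp0, Rplp1, Rplp2 and Rpsa. The rule found 180 probes of 84 genes among 56605 probes and 27306 gene symbols. A probe was tested if any group had it well above background on each of its 3 arrays, which 170 of the 180 probes and 80 of the 84 genes did. The 4 genes with no tested probe were the paralogues Rpl3l, Rpl10l, Rpl39l and Rps4l, and the remaining untested probes were extra probes of Rps2, Rps15a, Rps29, Rpl26, Rpl11 and Rps19. Ribosomal proteins whose symbols fall outside the rule, such as Fau, were not counted as members.

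The cells were C2C12, a mouse myoblast line from C3H muscle that fuses into myotubes when serum is lowered. They received a control siRNA (siControl) or an siRNA against Bach1 (siBach1, called siBach1-2 in the study's methods). BACH1 is a transcription repressor that pairs with small MAF proteins and is best known for holding down heme oxygenase and other antioxidant genes. Cells in growth medium, DMEM with 10% fetal bovine serum, made up the day 0 groups. Cells moved at confluence, 24 h after transfection, to DMEM with 2% horse serum made up the day 2 groups, so every group carried an siRNA and the day comparison joins time, serum and confluence. Each of the 4 groups had 3 arrays. Nothing in the labels says that these came from separate cultures, so p-values measure only the spread between these samples, which may be technical.

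Ribosomal proteins assemble with ribosomal RNA into the small subunit (Rps proteins), which reads the messenger RNA, and the large subunit (Rpl proteins), which joins amino acids, with the acidic stalk proteins Rplp0, Rplp1 and Rplp2 on the large subunit. Their messenger RNAs are among the most abundant in a cell, and most begin with a 5′ terminal oligopyrimidine (TOP) tract, a C followed by a run of pyrimidines, through which their translation follows nutrient and mTOR signals. That control acts on translation, which an array of RNA levels does not see. A few ribosomal proteins have paralogues with a restricted pattern: Rpl3l takes the place of Rpl3 in mature striated muscle, Rpl10l and Rpl39l are best known from testis, and Rps27l and Rpl22l1 are close relatives of Rps27 and Rpl22.

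All values below are log2 signal after subtraction of the array's 75th percentile, so a change is relative to that percentile and says nothing of RNA per cell. The 75th percentile itself lay between 325.5 and 534.4 signal units, 26921 to 33313 probes per array stood well above background, and no spot was saturated. The array with the lowest percentile and the fewest probes above background was siBach1 day 0 replicate 3. The targeted gene, Bach1, fell by 1.77 on the log2 scale at day 0 (adjusted p = 1.2e-05) and by 1.97 at day 2 (adjusted p = 1.4e-05). Replicates 1 and 2 of every group shared 1 slide and replicate 3 lay on another. Each condition kept its own column of array positions, while the row of replicate 1 differed from that of replicates 2 and 3. Column and condition thus cannot be told apart. The summed linear level of 10 differentiating-muscle markers, Myog among them, was 53.0 to 76.6 and 49.5 to 71.0 in the siControl and siBach1 arrays at day 0, and 1993 to 2173 and 1285 to 1544 at day 2. Of the fibroblast markers 5 were tested and Thy1 was never above background, and their sum went from 1.71 to 2.87 (siControl) and 1.24 to 1.80 (siBach1) at day 0 to 56.2 to 74.7 and 46.7 to 50.3 at day 2. The highest of the 5 in siControl cells at day 2 was Dcn, with a mean log2 level of 5.98, and Pi16 came next with 1.72. Of 4 endothelial markers Pecam1 was tested, with a level of at most 0.124, and Cdh5, Kdr and Tek were never above background. Of 4 macrophage markers on the array Cd68, Csf1r and Ptprc were tested, with a sum of 7.01 to 7.98 and 8.11 to 8.93 at day 0 and 4.91 to 7.21 and 4.65 to 7.42 at day 2 (siControl and siBach1), and Adgre1 was never above background. In siControl cells at day 0 the mean log2 levels were 2.15 for Ptprc, 1.36 for Csf1r and -0.84 for Cd68. The Ptprc probe is annotated to a cDNA or EST record. The sum of 6 tested myoblast markers was 237 to 257 and 284 to 317 at day 0 and 612 to 627 and 495 to 512 at day 2 (siControl and siBach1). The part of all these markers in the results below was not tested. In such bulk samples fewer cells of a type and less RNA per cell cannot be told apart.

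Because TOP messages are defined by their first bases, the annotated starts were read first. The RefSeq promoter table (build GRCm38.p6) holds 75 start windows for 63 of the 84 genes. A strict tract, here a C at the annotated first base followed by at least 4 C or T, began 13 of the 75 windows (17.3%), against 823 of 32851 windows of all genes (2.51%), and on allowing the tract to begin within 5 bases of the annotated start the shares were 41.3% and 18.3%. These windows show 10 bases before and 20 bases from the start, 5′ to 3′ on the coding strand, with the tract in capitals. The first 4 genes carry a strict tract at the annotated base, and among them are Rps27, one of a paralogue pair described below, and Rps6, the target of the S6 kinases. The other 5, genes and paralogues described below, have none at that base. In Rps27l, Rps2 and Rpl22l1, however, a tract begins within 5 bases of it.
Rps27 (chr3:90213629-90213658, minus strand): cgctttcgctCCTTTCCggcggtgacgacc
Rps6 (chr4:86857348-86857377, minus strand): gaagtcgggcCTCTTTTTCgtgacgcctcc
Rpl38 (chr11:114668570-114668599, plus strand): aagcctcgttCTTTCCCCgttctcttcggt
Rplp2 (chr7:141447641-141447670, plus strand): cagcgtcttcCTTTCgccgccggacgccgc
Rps27l (chr9:66946076-66946105, plus strand): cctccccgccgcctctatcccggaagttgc
Rps2 (chr17:24720053-24720082, plus strand): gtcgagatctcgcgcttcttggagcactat
Rps4x (chrX:102189372-102189401, minus strand): gctgggcggagcaacccaggctccagcgcg
Rpl22l1 (chr3:28805498-28805527, plus strand): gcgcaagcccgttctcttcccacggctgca
Rpl3l (chr17:24727816-24727845, plus strand): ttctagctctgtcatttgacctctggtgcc

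In the same promoter entries, 250 bases before to 50 after the start, the letters TGACNNNGC, the core that small MAF partners such as BACH1 bind, stood on either strand in 15 of the 75 member windows (20%) and in 12.4% of all windows. The AP-1 letters TGAGTCA were in 2.67% of the member windows and 5.20% of all windows. Where TGACTCA is followed by GC the 2 motifs overlap and count under both. A match is a description of letters and not a bound site.

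The first comparison asks how the messages for the ribosome moved when myoblasts were taken to low serum. In siControl cells 1 of the 170 member probes rose and 47 fell, where 24.6% of all 29664 tested probes rose and 28.7% fell. The share of member probes that fell was near the share among all probes in this fit, but above it with the replicate number as a block. The median member change was -0.16, beside 0.00 for all tested probes. In siBach1 cells no member probe rose and 137 of 170 fell, where 23.8% of all probes rose and 32.3% fell, and the median was -0.49 beside -0.07. The changes were small: 5 member probes in siControl cells and 8 in siBach1 cells fell at least 2-fold, where 9.46% and 9.59% of all probes did.

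How many members fell in siBach1 cells depended on the scaling. Without siControl day 0 replicate 3 the siControl falls were 29 and without siControl day 2 replicate 1 they were 30, where leaving out any other array gave up to 61. After quantile normalization, which forces the arrays to one distribution, 7 probes rose and 48 fell in siControl cells (24.2% and 28.7% of all probes, member median -0.12), and 8 rose and 54 fell in siBach1 cells (24.6% and 29.1%, member median -0.14). With the replicate number as a block, 5 rose and 82 fell in siControl cells (29.7% and 33% of all probes) and 0 rose and 145 fell in siBach1 cells (27.5% and 36.5%). The arrays of the 2 days did not overlap for 13 higher and 94 lower member probes in siControl cells (29.1% and 32.8% of all probes) and for 0 higher and 148 lower in siBach1 cells (25.9% and 35.4%). The array medians show the same values before any test. Across the 3 siControl arrays the median member level, relative to each probe's mean, was 0.01, 0.04 and 0.16 at day 0 and -0.14, -0.08 and -0.07 at day 2. In the siBach1 arrays it was 0.16, 0.19 and 0.42 at day 0 and -0.30, -0.23 and -0.15 at day 2. All 6 day 2 arrays lay below all 6 day 0 arrays, and at day 2 the siBach1 arrays lay below the siControl arrays, while at day 0 the lowest siBach1 array met the highest siControl array. After quantile normalization the siBach1 arrays ran from 0.07 to 0.11 at day 0, above the siControl arrays at 0.04 to 0.05, and the 2 siRNAs overlapped at day 2.

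**Figure D1:**
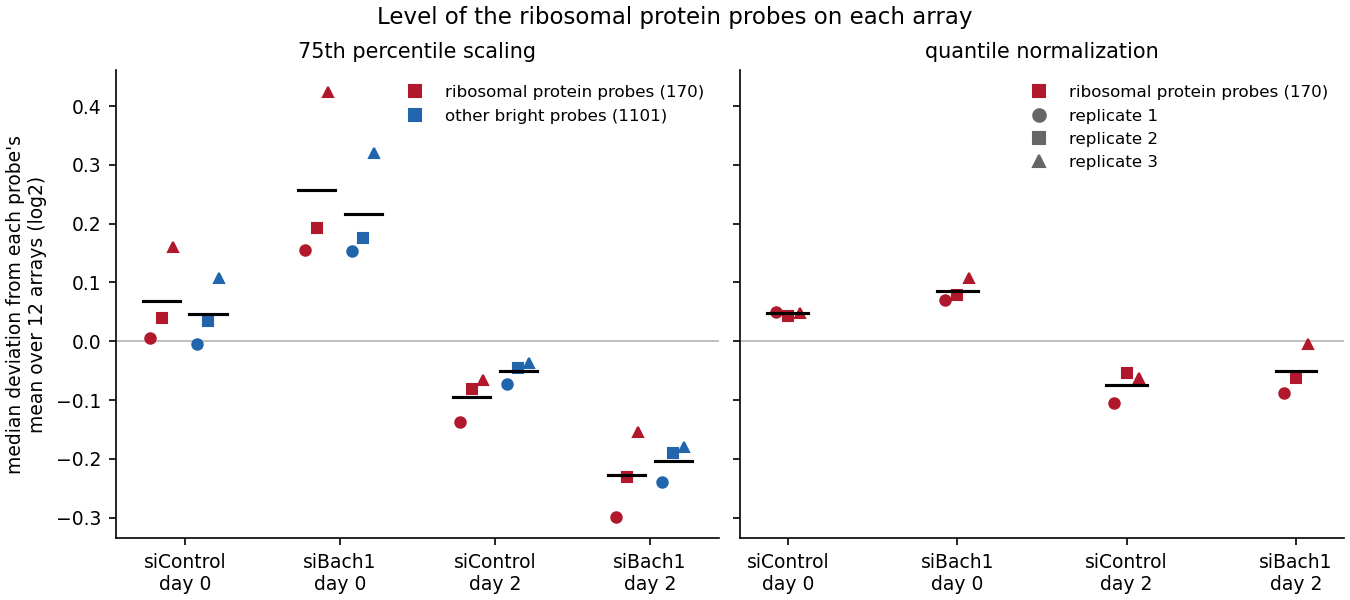
Median level of the ribosomal protein probes on each of the 12 arrays, in log2 units relative to each probe's mean, beside the other bright probes and the quantile-normalized members. After 75th percentile scaling the siBach1 arrays ran from 0.16 to 0.42 at day 0, where the lowest met the highest siControl array, and from -0.30 to -0.15 at day 2, below the siControl arrays, the other bright probes took nearly the same course, and under quantile normalization the gap between siRNAs at day 2 closed.

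Counted by gene, on each gene's brightest probe, 1 of 80 genes rose and 17 fell in siControl cells (median -0.14), and 0 rose and 66 fell in siBach1 cells (median -0.47). As shares, 21.3% of the genes fell in siControl and 82.5% in siBach1 cells, beside 28.7% and 32.3% of all tested probes. Of the 31 small-subunit genes 6 fell in siControl and 26 in siBach1 cells, with medians of -0.12 and -0.44. Of the 46 large-subunit genes 1 rose and 10 fell in siControl cells and 38 fell in siBach1 cells, with medians of -0.14 and -0.48. Of the 3 stalk genes 1 and 2 fell. Under quantile normalization the counts over all 80 genes were 2 up and 20 down in siControl cells and 1 up and 23 down in siBach1 cells. The 2 day comparisons share no array. Over the 80 genes their changes correlated with Pearson r = 0.89 and Spearman rho = 0.85, a description across genes, which are not independent and share their arrays' scaling. All 17 genes that fell in siControl cells also fell in siBach1 cells, and no gene passed in opposite directions. With 75th percentile scaling 26 of the 80 genes, passing or not, had values above 0 in siControl cells and none had in siBach1 cells. Of all tested probes 50.2% and 45.6% had values above 0. Under quantile normalization 19 and 16 of the 80 genes did, beside 48.5% and 46.3% of all tested probes. The contrast between the siRNAs thus depended on the scaling.

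**Figure D2:**
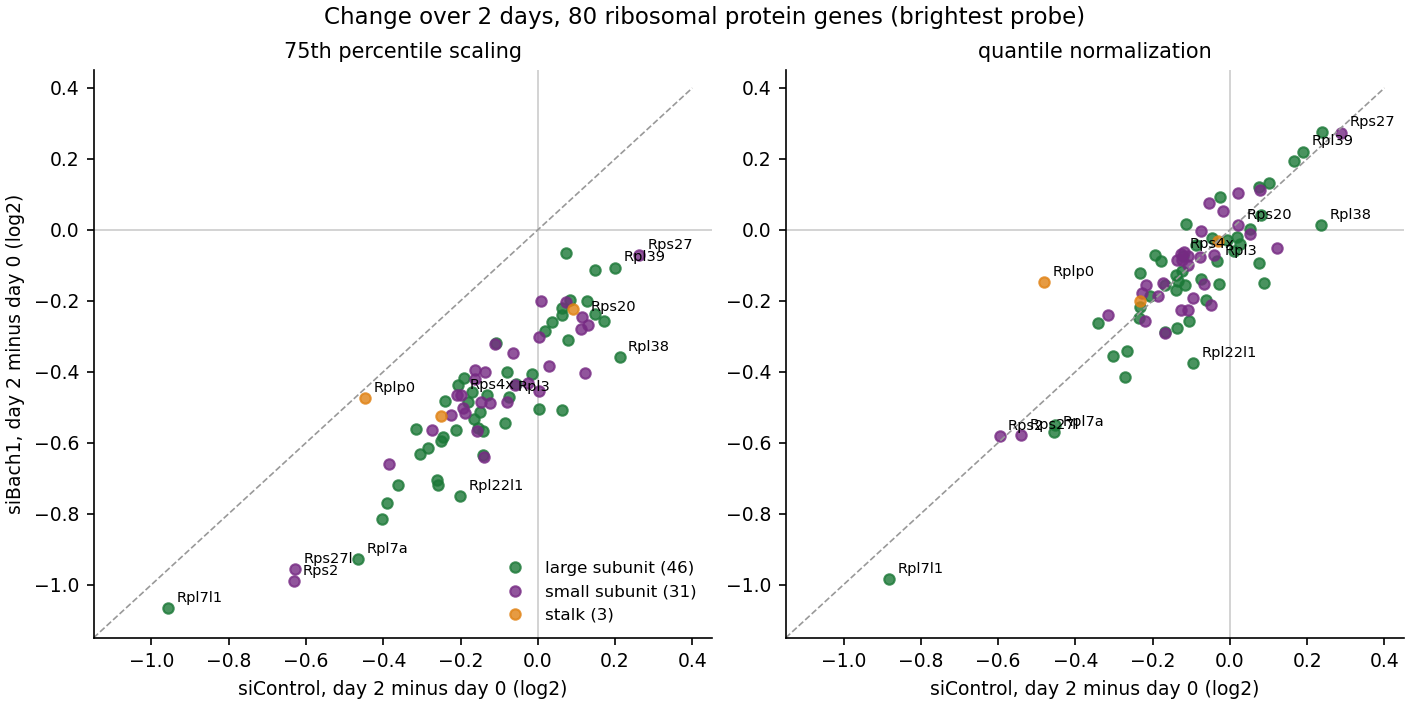
Change from day 0 to day 2 of each of the 80 ribosomal protein genes (brightest probe, log2), siControl on the horizontal and siBach1 on the vertical axis. The genes kept a similar order in both, with Rpl7l1, Rps27l and Rps2 lowest and Rps27 among the highest, and the siBach1 median of -0.47 lay below the siControl median of -0.14, while under quantile normalization they were -0.12 and -0.11.

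Against that narrow field a few genes stood well below the rest. Rps2, a small-subunit protein at the messenger entry side, read 8.27, 8.35 and 8.32 on the siControl arrays at day 0 and 7.65, 7.69 and 7.71 at day 2. In siBach1 cells it read 8.43, 8.46 and 8.55, then 7.48, 7.47 and 7.52. The days did not overlap with either siRNA, and Rps2 fell by 0.63 in siControl and by 0.99 in siBach1 cells (limma, both called). Under quantile normalization the falls were 0.60 and 0.58, so the fall of Rps2 held with the other scaling while the step between the siRNAs did not.

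Rps27l and Rps27 took different courses. Rps27l, which the p53 pathway is known to induce, read 6.67, 6.65 and 6.78 on the siControl arrays at day 0 and 6.08, 6.04 and 6.09 at day 2. In siBach1 cells it went from 6.85, 6.69 and 7.04 to 5.82, 5.89 and 6.0. It fell by 0.63 and by 0.96, with no overlap of the days, and a second probe fell by 0.72 and by 1.09. Rps27, the canonical paralogue, read 8.07, 8.03 and 8.23 at day 0 and 8.36, 8.39 and 8.36 at day 2 in siControl cells. Those arrays did not overlap either, but the difference of 0.26 did not pass (adjusted p = 0.0675). In siBach1 cells Rps27 went from 8.25, 8.23 and 8.60 to 8.19, 8.31 and 8.38, which overlap, with a difference of -0.07. Under quantile normalization Rps27 rose in both, by 0.29 and by 0.27 (adjusted p = 0.0071 and 0.0091), while Rps27l still fell, by 0.54 and by 0.58, so the 2 paralogues ran in opposite directions there. The siBach1 value for Rps27 thus changes sign with the scaling.

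Rpl7l1, a relative of Rpl7 that is not a standard part of the mature ribosome, was one of the dimmer members. It read 1.90, 1.85 and 1.97 at day 0 and 0.92, 0.90 and 1.04 at day 2 in siControl cells. In siBach1 cells it read 1.79, 1.85 and 1.79, then 0.69, 0.69 and 0.84. It fell by 0.96 and by 1.07, and by 0.88 and by 0.98 under quantile normalization, the largest fall among the 80 genes on their brightest probes with 75th percentile scaling.

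Among the stalk genes Rplp0, the protein that anchors the stalk to the large subunit and a common reference gene for RNA measurements, read 8.68, 8.71 and 8.71 at day 0 and 8.28, 8.26 and 8.22 at day 2 in siControl cells. In siBach1 cells it read 8.63, 8.69 and 8.87, then 8.21, 8.32 and 8.24. The days were apart with both siRNAs, and it fell by 0.45 and by 0.47, although under quantile normalization the siBach1 change was -0.15 and did not pass (adjusted p = 0.136). Rplp2 changed by 0.09 and -0.22, neither of which passed. The 3 probes of Rplp1 gave 0.20, -0.25 and -0.27 in siControl cells, none of which passed, and -0.28, -0.53 and -0.56 in siBach1 cells, all of which did, although under quantile normalization the siBach1 values were 0.08, -0.20 and -0.18 and none passed. Rpsa, the laminin receptor protein of the small subunit, fell by 0.49 and by 0.69 on one of its tested probes, and the other is not reported here. Rps6 fell on both probes, by 0.45 and by 0.27 in siControl and by 0.70 and by 0.56 in siBach1 cells, and all 4 falls passed under quantile normalization too.

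In siControl cells Rpl39, a small protein of the exit tunnel, was the 1 gene with a probe that rose, by 0.20 (adjusted p = 0.0497). In siBach1 cells 1 of its 5 probes fell, by 0.26 (adjusted p = 0.032), and the probe was at 0.07 under quantile normalization. Another 2 probes, both at -0.16 and not passing, were at 0.26 each under quantile normalization, so the direction of Rpl39 in siBach1 cells turned with the scaling. The 13 genes with a strict tract at the annotated start had a median change of 0.00 in siControl and -0.42 in siBach1 cells, and the 47 tested genes with a window but no tract there had -0.15 and -0.50. Under quantile normalization the medians were -0.11 and -0.07 with the tract and -0.12 and -0.15 without it, a description with no test. A tract beginning within 5 bases of the start was found in 29 of the 63 genes with a window. The 47 genes are thus not all without a tract near the start.

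In siControl cells all 5 falls of at least 2-fold came from dimmer probes that disagreed with a brighter probe of the same gene, in Rps24 (-1.66), Rps12 (-1.5), Rps27a (-1.30), Rpl12 (-1.26) and Rpl30 (-1.19). The dim Rps12 probe read -1.52, -1.45 and -0.98 at day 0 and -2.91, -3.01 and -2.53 at day 2, where the bright probe of the same gene read 8.86, 8.93 and 9.0, then 8.96, 8.93 and 8.99. One probe thus fell well past its spread while the other overlapped. The bright probes of Rps24, Rps27a, Rpl12 and Rpl30 changed by 0.13, -0.12, -0.26 and -0.13. The dim falls are uncertain as measures of the genes. Ribosomal protein genes have many near-identical processed pseudogenes, and which transcripts each probe binds was not tested.

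The other genes of protein synthesis were taken from lists chosen with earlier results known and read on the brightest probe. Ribosome biogenesis genes, which make and process ribosomal RNA, mostly fell: of 121 tested genes 0 rose and 108 fell in siControl cells (median -0.86, 41 at least 2-fold) and 109 fell in siBach1 cells (median -0.95, 54 at least 2-fold). Dkc1, the pseudouridine synthase of small nucleolar RNPs, fell by 2.33 and by 2.19, and Nop56, a core protein of the same class of particles, also fell (-1.92 and -2.02). Of 77 mitochondrial ribosomal protein genes 1 rose and 49 fell in siControl cells (median -0.40) and 69 fell in siBach1 cells (median -0.67). Mrps6 fell in both (-1.61 and -1.87). Of 36 translation factors and other TOP messages 2 rose and 21 fell in siControl cells (median -0.29), and 1 rose and 27 fell in siBach1 cells (median -0.60), with falls of Npm1 by 1.35 and by 1.45. Beside these counts, 24.6% of all tested probes rose and 28.7% fell in siControl cells, and 23.8% and 32.3% in siBach1 cells. Under quantile normalization the siControl medians were -0.76 for biogenesis, -0.28 for the mitochondrial ribosome and -0.22 for the TOP list, beside -0.11 for the cytosolic ribosomal protein genes. The cytosolic ribosomal proteins thus had the median nearest to 0 of the 4 lists, on either scaling, in siControl cells.

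**Figure D3:**
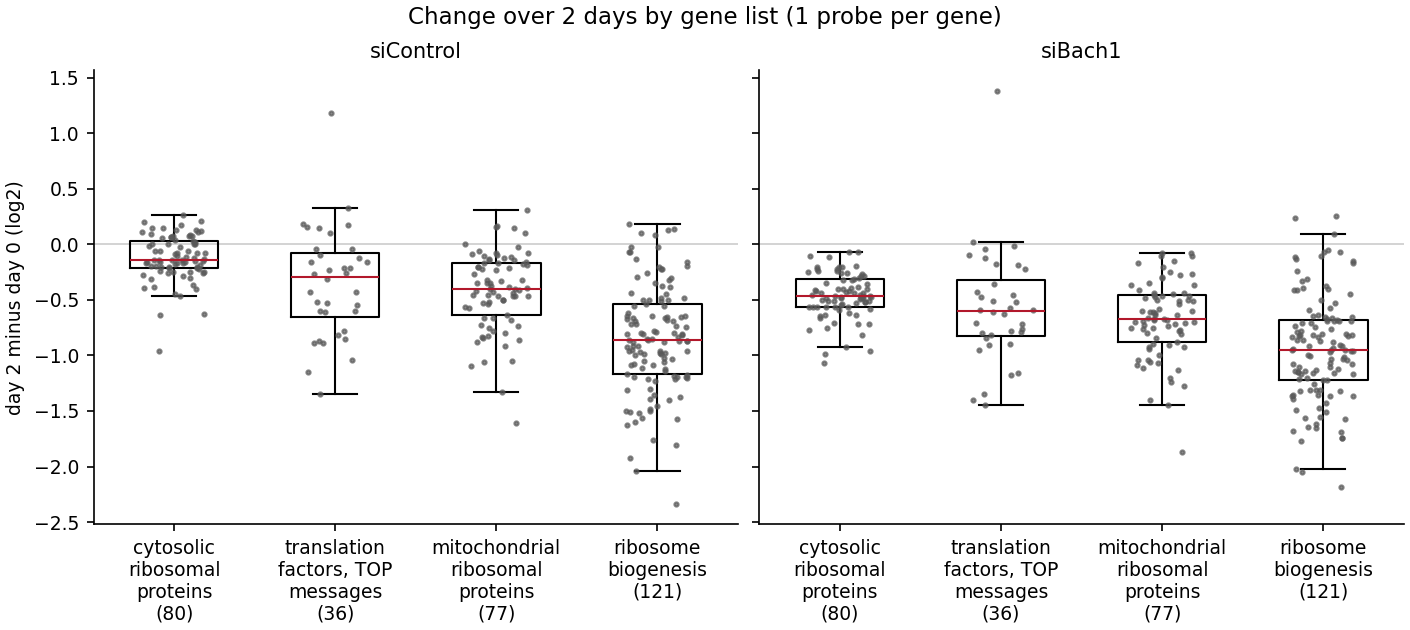
Change from day 0 to day 2 (log2, each point a gene on its brightest probe) for the cytosolic ribosomal protein genes and the other lists of protein synthesis, in siControl and siBach1 cells, with boxes for the quartiles, a red line for the median and whiskers to the outermost genes not drawn as outliers. Ribosome biogenesis genes had medians of -0.86 and -0.95 and cytosolic ribosomal protein genes -0.14 and -0.47, the latter -0.11 and -0.12 under quantile normalization.

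The muscle paralogue Rpl3l was set beside Rpl3, a protein of the peptidyl transferase centre. Rpl3 has 3 probes. The brightest read 7.97, 8.08 and 8.14 in siControl cells at day 0 and 7.93, 8.09 and 7.95 at day 2, which overlap, a difference of -0.07 (adjusted p = 0.471). In siBach1 cells it read 8.18, 8.28 and 8.33, then 7.78, 7.83 and 7.77, with no overlap, and fell by 0.47. The other 2 probes differed by -0.28 (adjusted p = 0.053) and fell by 0.43 in siControl cells and fell by 0.67 and by 0.71 in siBach1 cells. Under quantile normalization the brightest probe's siBach1 change was -0.09 and did not pass (adjusted p = 0.365), while the other 2 still fell, by 0.25 and by 0.37.

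Rpl3l was at the edge of detection throughout. Its processed signal was 4.88, 4.93 and 5.34 units in siControl and 3.27, 5.03 and 5.31 in siBach1 cells at day 0. At day 2 it was 22.8, 11.7 and 5.86 in siControl and 19.6, 11.3 and 11.5 in siBach1 cells. Each day 2 array read above every day 0 array, but only replicate 1 of each siRNA at day 2 stood well above background, and siControl replicate 3 at 5.86 lay close to the day 0 values. No fold or test is drawn from these values. The day 2 means were below the mean, over the day 0 arrays of the same siRNA, of each array's lowest signal well above background. The lower bound on the fold, not a strict one, was thus under 1 in both siControl (0.80) and siBach1 cells (0.68). A lower bound under 1 gives neither the direction nor the size of a change. Rpl3 and Rpl3l thus cannot be compared in size of change on these arrays.

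The other restricted paralogues were not well above background on all 3 arrays of any group either. Rpl39l stood above background on 2 of 3 siBach1 arrays at day 2 and on no other array, with values of -5.74, -1.97 and -1.32. Each siBach1 array of day 0 has its own lowest signal well above background. The Rpl39l mean at day 2 was 2.58-fold above the mean of those lowest signals. That Rpl39l mean takes in replicate 1, which was not above background, so the fold is no strict bound. It was not tested, as the probe did not pass the filter. Rps4l read between -5.90 and -4.58 and Rpl10l between -6.87 and -3.81 over the 12 arrays.

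**Figure D4:**
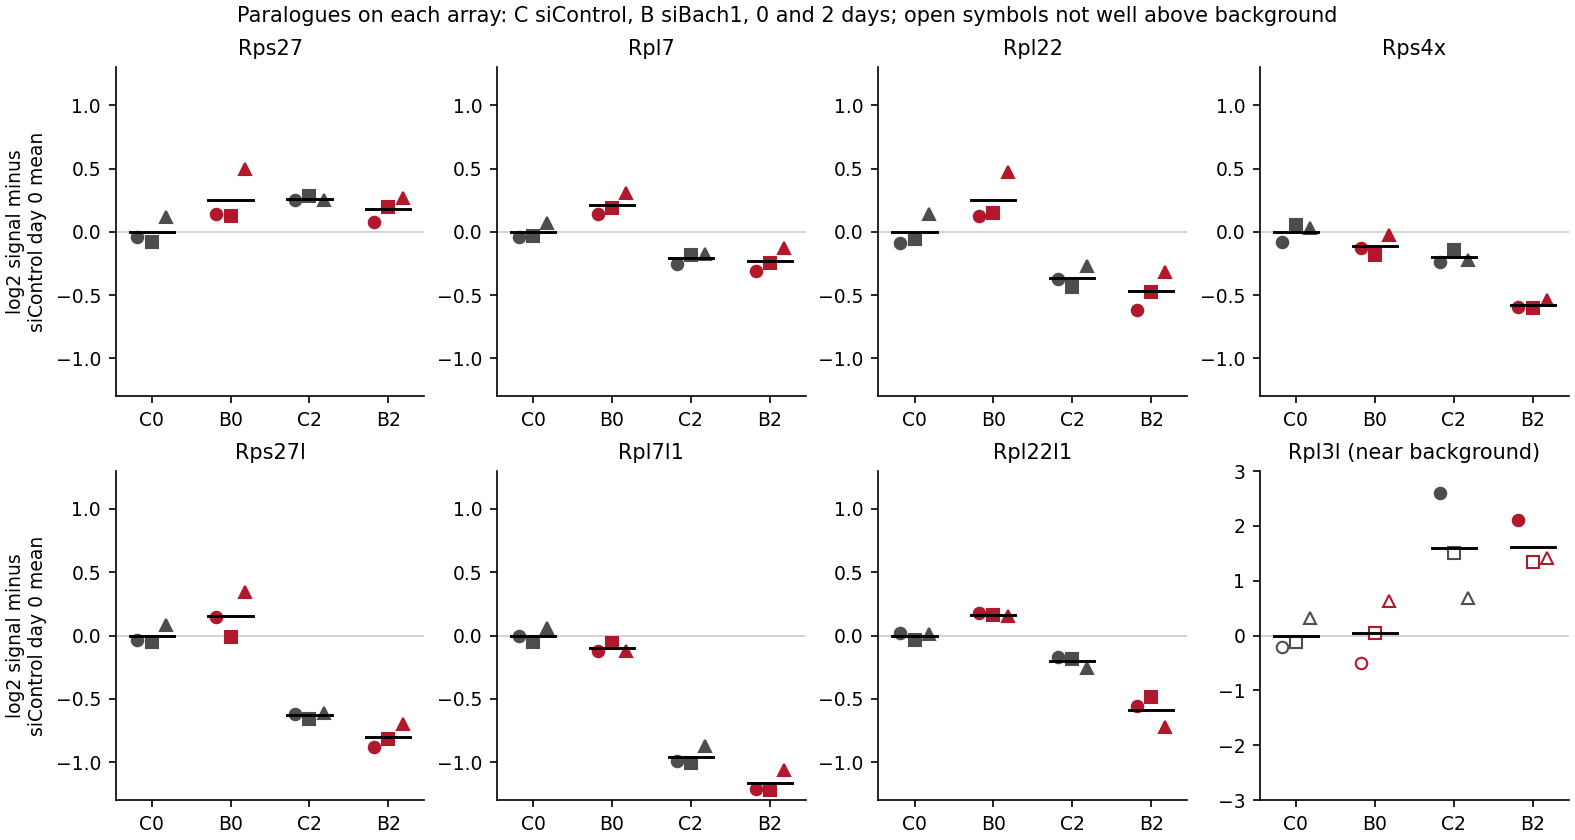
Rps27, Rpl7, Rpl22 and Rps4x (upper row) and Rps27l, Rpl7l1, Rpl22l1 and Rpl3l (lower row) on each of the 12 arrays. Values are log2 signal minus the probe's siControl day 0 mean, so 0 is that mean. Filled points were well above background and open points not, and bars give the group means. Rpl3 is not drawn, and the Rpl3l panel has a wider axis than the others. Rps27l fell at day 2 with both siRNAs, Rps27 passed in neither and had a siBach1 change of -0.07 that was 0.27 under quantile normalization, and Rpl3l was well above background on only 1 array of each day 2 group.

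The second comparison asks what silencing of Bach1 did to these messages on each day. At day 0, 7 of 170 member probes rose in siBach1 cells and 0 fell, where 8.8% of all probes rose and 8.32% fell. The median difference was 0.20 beside 0.09 for all probes. A value above 0 was found for 159 of 170 member probes and for 62.3% of all probes. Under quantile normalization, however, the member median was 0.04 and 0 rose and 1 fell (7.08% and 8.97% of all probes). With the replicate block 54 rose and 1 fell (16.2% and 11.3%), so the share of members that rose was under that of all probes without the block and above it with the block. Without siBach1 day 0 replicate 3, the array of lowest signal, the median was 0.12 and 1 probe rose, and leaving out any 1 of the 12 arrays left 0 to 5. The probes that rose belonged to Rpl13a (0.34, adjusted p = 0.0152), Rpl14 (0.34), Rpl5 (0.29), Rpl36a (0.27 and 0.24), Rpl36al (0.26) and Rpl39 (0.23). Rpl13a, known also for its part in interferon-induced translation control, read 7.15, 7.13 and 7.23 on the siControl and 7.40, 7.58 and 7.56 on the siBach1 arrays, with no overlap. None of these 7 passed under quantile normalization.

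At day 2 the values lay on the other side. Of 170 member probes 0 rose and 5 fell in siBach1 cells, where 5.75% of all probes rose and 6.26% fell, and the median was -0.13 beside -0.01, but under quantile normalization the median was 0.02 and no member probe passed (6.33% of all probes rose and 6.16% fell). With the replicate block 0 rose and 17 fell (9.78% and 11.6%). Leaving out siControl day 0 replicate 2, any siControl day 2 array or siBach1 day 2 replicate 1 or 3 left 2 falls, siBach1 day 0 replicate 2 or siBach1 day 2 replicate 2 left 3, and without siBach1 day 0 replicate 3 there were 9. The arrays of the 2 siRNAs did not overlap for 67 probes, all lower in siBach1 cells, where 15.7% of all probes were higher and 17.1% lower without overlap. At day 0 the corresponding counts were 67 higher, where 21.9% of all probes were, and 2 lower, where 15.4% were.

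These small shifts moved with probe brightness. Of the 170 member probes 147 had a mean log2 level above 6, and 1101 other probes did. The median silencing difference at day 0 was 0.20 for the bright members and 0.18 for the other bright probes. At day 2 it was -0.14 and -0.16. The difference between days was -0.32 and -0.33. Members and other bright probes therefore had nearly the same median in each silencing comparison. For the day comparisons they were -0.15 and -0.09 in siControl and -0.48 and -0.41 in siBach1 cells. On the slide that held replicates 1 and 2 the member medians were 0.17 at day 0 and -0.15 at day 2, and on the slide of replicate 3 they were 0.26 and -0.09.

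**Figure D5:**
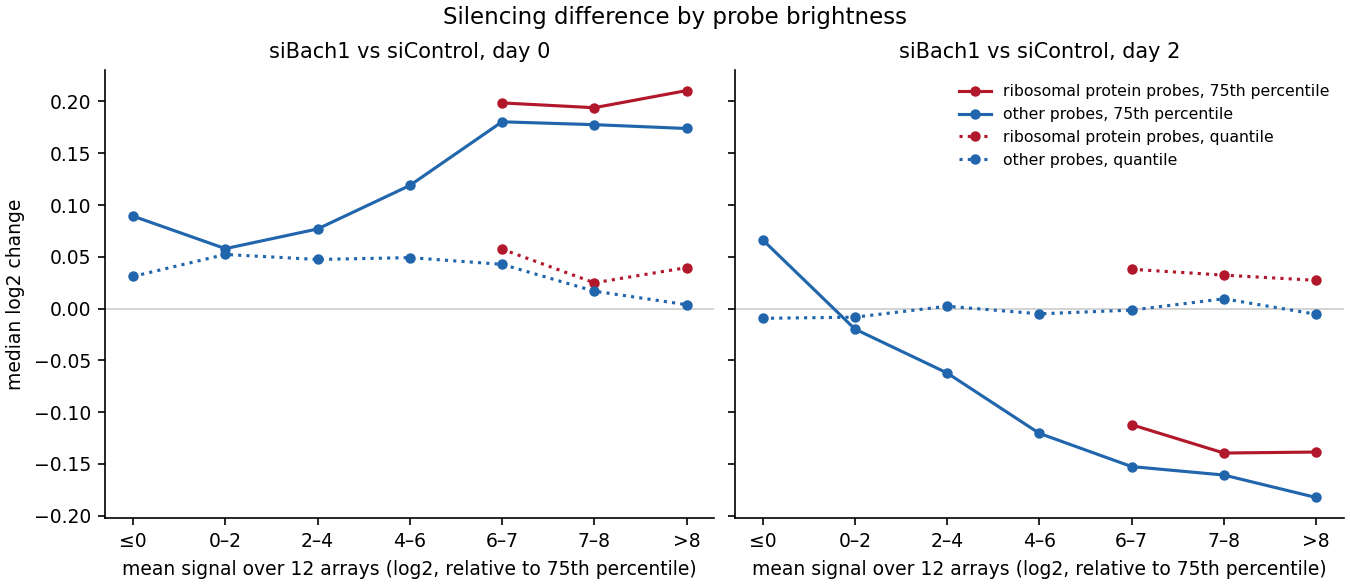
Median silencing difference (siBach1 minus siControl, log2) of the probes in each range of mean log2 signal, for ribosomal protein probes and the other tested probes, at day 0 and day 2, with solid lines for 75th percentile scaling and dotted lines for quantile normalization. Members above a log2 level of 6 had medians of 0.20 and -0.14, and other probes as bright had 0.18 and -0.16, while quantile normalization brought the members to 0.04 and 0.03.

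Rps4x, the X-linked small-subunit protein, had 2 of the 5 probes that fell on silencing at day 2. Its brightest probe read 7.28, 7.37 and 7.29 on the siControl arrays at day 2 and 6.92, 6.91 and 6.97 on the siBach1 arrays, and it fell by 0.38 (adjusted p = 0.0104). At day 0 it read 7.43, 7.56 and 7.54 and then 7.39, 7.33 and 7.49, which overlap, a difference of -0.11 (adjusted p = 0.352). Under quantile normalization the order of the tests turned: the day 0 value was -0.28 and passed (adjusted p = 0.0178), and the day 2 value was -0.22 and did not (adjusted p = 0.058). The probe was below siControl on both days with either scaling. A second probe fell by 0.31 at day 2 (adjusted p = 0.033) and differed by 0.05 at day 0, and a further, dim probe gave 0.31 and 0.36, neither of which passed.

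Rpl22l1, which is known to be held down by its paralogue Rpl22, read 6.53, 6.51 and 6.44 on the siControl and 6.14, 6.21 and 5.97 on the siBach1 arrays at day 2. It fell by 0.38 (adjusted p = 0.0118), and by 0.26 under quantile normalization, where it did not pass (adjusted p = 0.0787). At day 0 it read 6.71, 6.66 and 6.71 against 6.87, 6.85 and 6.85, higher on all 3 siBach1 arrays by 0.17 on average, which did not pass. Rpl22 itself differed by 0.25 and -0.11, neither of which passed. From day 0 to day 2 Rpl22 fell by 0.36 in siControl and 0.72 in siBach1 cells, and Rpl22l1 fell by 0.75 in siBach1 cells. Rpl24 was also among the probes that fell on silencing at day 2 (-0.32).

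Whether silencing acted differently on the 2 days was tested as the difference of the silencing effects. Of the 170 member probes 0 rose and 4 fell, where 2.39% of all probes rose and 2.2% fell, with a median of -0.31 beside -0.07, while under quantile normalization the median was 0.01 and none passed (2.48% of all probes rose and 1.35% fell). With the replicate block 0 rose and 54 fell (5.16% and 7.86%). Leaving out any 1 array left 0 to 3. Rpl22l1, Rpl24 and Rpl27 were among them. Rpl24, a late-joining protein of the large subunit, read 7.40, 7.53 and 7.57 against 7.58, 7.64 and 7.84 at day 0 and 7.48, 7.52 and 7.51 against 7.13, 7.20 and 7.21 at day 2, siControl before siBach1 each time. Its siBach1 arrays were the higher at day 0 and the lower at day 2, with no overlap on either day. The part of probe brightness in these 4 was not tested.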

How the data were processed

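RNA of C2C12 cells given siControl or siBach1, on days 0 and 2 (4 groups of 3), was hybridised to Agilent 8x60K mouse arrays. The authors deposited Feature Extraction scanner files (version 10.7.3.1 in the headers, 9.1 in the labels) and a table of normalized log2 values (array 75th percentile and probe median subtracted). Here the deposited processed intensity was divided by the array's 75th percentile, taken to log2, and spots of a probe were averaged. Control and outlier spots (76 to 110 per array) were left out. All 29664 probes well above background on all 3 arrays of a group entered 1 limma fit (3.58.1, R 4.3.3), with Benjamini-Hochberg adjustment, called below 0.05. On simulated data for silencing at day 2, over all 29664 tested probes, the fit recovered 21% of changes of 0.5 log2 and 81% of changes of 1.5 log2. Small changes can thus be missed, and recovery among the members alone is not given. Genes are on their brightest probe. Named were paralogues, stalk proteins, Rpsa, Rps6 and the 5 largest changes called each way, others by count. Members and lists were chosen with earlier results of these data known. Same-numbered arrays deviated together in 18 of 18 pairs (correlation 0.142 to 0.595), so they are not independent. They share a slide, but replicates 1 and 2 lay on the same one, so the slide alone does not pair samples by number. Slide and row of the array together do, so this layout and the replicate number cannot be told apart. The main fit left the replicate number out, and the replicate block took it in. Alternatives comprised scaling, normexp, filters, blocks, test, and leaving out each array. Some results on single genes are not reported here.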

Additional observations from a re-analysis of the deposited data

Results flagged for a closer look

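The silencing effect differed between day 2 and day 0, by limma's test of the difference itself, for member probes of Rpl22l1, Rpl24 and Rpl27 among others. The difference of the log2 effects, day 2 minus day 0, was -0.55 for Rpl22l1 (adjusted p = 0.0241), -0.51 for Rpl24 (adjusted p = 0.0445) and -0.49 for Rpl27 (adjusted p = 0.0404). Each of these was higher in siBach1 cells at day 0 and lower at day 2 by its group means, and none passed under quantile normalization. In this test 4 of 170 member probes fell, a share near the 2.2% of all tested probes, and leaving out any 1 array left 0 to 3. The median difference was -0.32 for members above a log2 level of 6 and -0.33 for other probes as bright.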

How the results depend on the processing

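Values are counts of member probes unless called a change. The share of all probes called moves with the setting too. For silencing at day 0, 8.8% of all probes rose in the main fit and 16.2% with the replicate block. A count with no such share, here or above, does not show a change of the members alone. Quantile normalization gave, for silencing at day 0, 0 up and 1 down (median 0.0395), at day 2 0 down (median 0.0227), and for the difference between days 0 down (median 0.00821), and for the day comparisons 7 up in siControl and 8 up and 54 down in siBach1 cells (median -0.14). The siBach1 day change was then -0.0882 for Rpl3 and turned sign for Rpl36a (A_51_P283920 0.0807, A_55_P2761817 0.00289), Rpl39 (A_55_P1957291 0.26, A_55_P2182106 0.26, A_65_P03435 0.0700), Rplp1 (A_55_P1995126 0.0760), Rps4x (A_55_P2081829 0.0283) and Rps27 (A_55_P2155438 0.27, A_55_P2163622 0.32). Quantile normalization with the replicate block, chosen after seeing the data, gave 1 up and 1 down at day 0, 2 down at day 2, 0 down for the difference, 10 up in siControl and 10 up and 72 down in siBach1 cells. The replicate block alone gave 54 up and 1 down, 17 down, 54 down for the difference, and 5 up and 82 down in siControl cells. With slide as the block these were 59 and 1, 19, 57 (and 1 up), and 4 and 81. A fold of 2 left 0, 0 and 0 for silencing and its difference, 0 up and 5 down in siControl and 8 down in siBach1 cells, where Rpl3 changed by -0.47. With no filter the silencing counts were 0 up, 0 down and 0 for the difference, with 2 up and 28 down in siControl and 2 up in siBach1 cells. A robust prior gave 22 up, 10 down, 22 for the difference and 3 up in siControl cells. The methods' t-test, unadjusted, gave 27 up at day 0, 49 down at day 2, 6 up and 74 down in siControl cells, and silencing changes of Rpl3 of 0.20 and -0.20 that passed, and after Benjamini-Hochberg 3 up in siControl cells. No result of this t-test is given for the difference between days. The median of each array gave 4 up at day 0 and 0 up in siControl cells, and requiring all 12 arrays above background 12 up at day 0. Only the arrays of the comparison gave 0 up at day 0, 1 down at day 2 and 0 up in siControl cells. Normexp gave 0 up and 75 down in siControl cells, and, in siControl and siBach1 cells, day differences of Rpl3l of 0.50 and 0.13 and of Rpl3l minus Rpl3 of 0.78 and 0.72, where 75th percentile scaling gave 1.59 and 1.57 and 1.86 and 2.18, all on a probe well above background on all 3 arrays of no group, so that no fold was drawn from them. With 1 probe per gene the falls were 20, 68 and 11 for siControl, siBach1 and the difference. The difference for Rpl3 was -0.40, beside a median of -0.33 for other probes above a log2 level of 6. It did not pass in the main fit (limma, adjusted p = 0.075) but passed with either block, the robust prior and 1 probe per gene. The silencing changes of Rpl3 did not pass in the main fit either (adjusted p = 0.117 at day 0 and 0.143 at day 2).

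With each array left out in turn, the counts were 0 to 5 up at day 0, 2 to 9 down at day 2, 0 to 2 up and 29 to 61 down in siControl cells, 123 to 139 down in siBach1 cells and 0 to 3 down for the difference. The 29 came without siControl day 0 replicate 3, and 30 came without siControl day 2 replicate 1. No share of all probes is given beside these counts, so they do not show a change of the members alone. The medians ran from 0.12 to 0.24, -0.17 to -0.09, -0.20 to -0.14, -0.54 to -0.41 and -0.36 to -0.23 in the same order. 3 arrays a group, dim probes of Rpl3l and Rpl39l, and shared sequence limit what can be read. The cause of the dependence on scaling was not tested.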

Other observations

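Of the ribosomal proteins outside the symbol rule, Fau, whose product carries the small-subunit protein eS30, changed by 0.12 from day 0 to day 2 in siControl cells and fell by 0.30 in siBach1 cells (limma, adjusted p = 0.034), a call that was lost under quantile normalization, where no ribosomal protein outside the rule passed. Gnb2l1, which encodes the scaffold protein RACK1 of the small subunit, changed by 0.07 and -0.13, neither of which passed. Neither gene passed the test of silencing on either day.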
